A study of Xenopus laevis and Petromyzon marinus with 21 samples.

Results

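Keratin genes of the frog Xenopus laevis were followed through epidermis formation and neural crest induction in cultured animal caps. The set holds every gene whose name begins with krt and a digit, 77 of the 49282 genes counted. Xenopus laevis carries most genes as an L and an S copy, on the long and short chromosomes of its former parent genomes, and each copy was treated as a member. By their numbers and gene clusters, 46 members code for type I and 31 for type II keratins. Enough counts for a test were present in 28 members, 20 of type I and 8 of type II. Of these, 5 met the count filter through control libraries but not through induced ones, 0 the other way round, and 14 did not meet it through the libraries of stage 9. A low value of such copies in induced caps or at stage 9 is in part a condition of their being tested. Of the other members, 10 had no count and 39 had at most 46 counts in any library, and together these untested copies made up 0.00192 to 0.0678% of the keratin counts of a library.

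Keratins are the intermediate filament proteins of epithelia. A filament is built from pairs of an acidic type I and a basic type II chain, so an epithelial cell makes partners from both classes. KRT8 and KRT18 are the pair of simple, single-layered epithelia and of early embryos. The surface ectoderm of the frog embryo switches on further keratins as it becomes epidermis, under BMP signalling, and krt12.4 is among the classical markers of that step (RefSeq lists epidermal keratin, EpK, among its names). Neural crest cells arise at the border of neural plate and epidermis, under Wnt signals and lowered BMP signalling. They leave the epithelium later and carry filaments of vimentin, the mesenchymal intermediate filament protein.

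Animal caps are explants of the pluripotent upper region of the blastula. Here they came from wild-type embryos and were cultured in a salt solution. Control caps were untreated and their labels call them blastula cells at stage 9 and epidermis at stages 13 and 17. Induced caps came from embryos that had received, by injection at the 2-cell stage, wnt8a mRNA, coding for a Wnt ligand, and chordin mRNA, coding for a BMP antagonist, and their labels call them neural crest. Each of the 6 groups, control and induced at stages 9, 13 and 17, had 3 poly(A) RNA libraries, called a, b and c. No group received only 1 of the mRNAs or another mRNA, so what the Wnt ligand, the antagonist and the injection each contribute cannot be told apart. A cap is a mixed tissue, and in bulk RNA fewer cells of a type and less RNA per cell cannot be told apart.

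The 18 libraries held 15596247 to 23292078 gene counts, and levels are given as CPM, read counts scaled to a common library size with TMM factors of edgeR. The summed level of 12 neural crest marker copies was 22.4 to 33.5 CPM in control and 962 to 1379 CPM in induced caps at stage 13, and 14.4 to 26.2 against 3598 to 3926 CPM at stage 17. At stage 9 it was 9.68 to 11.4 CPM in control and 7.49 to 13.9 CPM in induced caps, so that label was not yet matched by these markers. Induced library c of stage 13 stood apart from libraries a and b. Its multiciliated cell markers (14 copies) summed to 209 CPM against 57.2 and 71.4, its ionocyte markers (8 copies) to 97.9 against 40.3 and 25.6, and its markers of goblet and small secretory cells (8 copies) to 1689.9 against 636 and 270.3 CPM. Its neural crest markers were the highest as well, at 1379 CPM against 962 and 1220. In contrast, its non-keratin epidermal markers (13 copies) had the lowest sum, at 5397 CPM against 6607 and 8686, but members of this list went both ways. In induced libraries a, b and c of stage 13 itln1.L had 202, 153 and 3513 counts, and tp63.S had 90, 597 and 951. For cldn4.L these were 22423, 31707 and 17397, and for grhl3.S 3678, 3808 and 2893. Muscle markers (8 copies) reached 61.9 CPM in induced library b of stage 13 and 28.5 CPM in induced library c of stage 17, against 5.43 CPM or less in the other libraries.

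Keratin transcripts as a whole were scarce in the blastula and made up a large share of the RNA of epidermal caps, and induced caps held less of them. At stage 13 keratins took 5.63, 6.09 and 5.43% of the gene counts in the control libraries a, b and c, and 1.72, 1.62 and 1.99% in the induced ones. The groups did not overlap, and the induced mean of 1.78% ± 0.193 (SD, n = 3) was 3.22-fold lower than the control mean of 5.72% ± 0.341 (exact two-sided permutation test, p = 0.1, the smallest that 3 against 3 libraries allow). At stage 17 the control libraries held 8.91, 9.61 and 7.99% and the induced libraries 5.23, 3.97 and 4.08%. Again no induced library reached a control library, with means of 4.43% ± 0.701 against 8.84% ± 0.813 (SD, n = 3, exact permutation p = 0.1). At stage 9 the share was 0.156% ± 0.0182 in induced and 0.155% ± 0.0114 in control caps and the groups overlapped (SD, n = 3, exact permutation p = 1). The keratin share of induced caps was thus larger at stage 17 than at stage 13, and no induced library reached the range of control caps of stage 13.

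**Figure D1:**
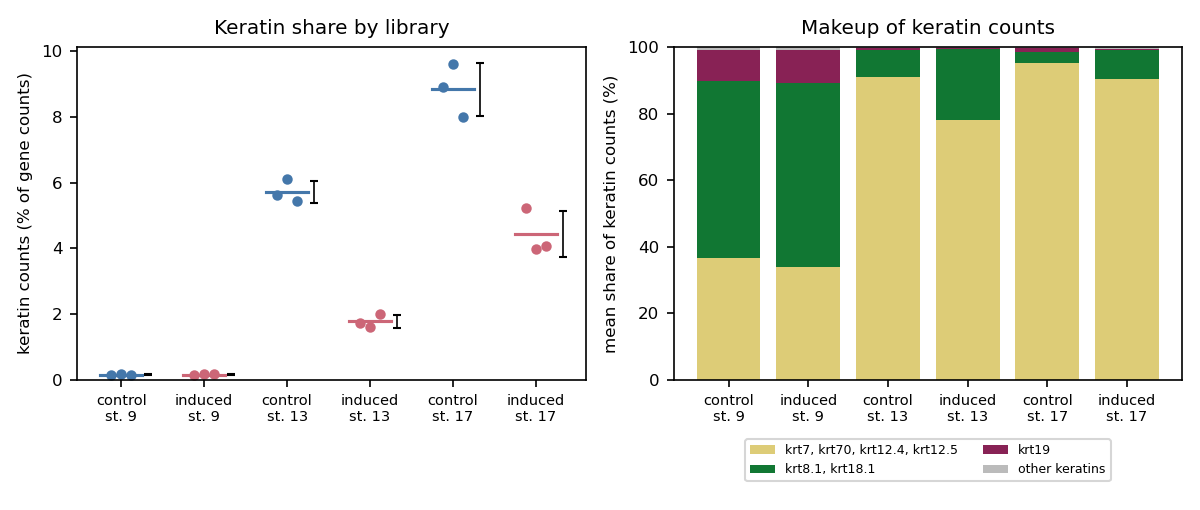
Left, keratin counts as a percentage of all gene counts in each library (points), with the group mean (line) and SD (black bar, n = 3). Induced libraries lie between 1.62 and 1.99% at stage 13 and between 3.97 and 5.23% at stage 17, below every control library of the same stage. Right, the mean makeup of the keratin counts of each group: the L and S copies of krt7, krt70, krt12.4 and krt12.5 in yellow, those of krt8.1 and krt18.1 in green, those of krt19 in red and all others in grey.

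The mix of keratins differed as well, and the simple epithelial pair took a larger share of it in induced caps. The L and S copies of krt8.1 and krt18.1 made up 53.2% ± 7.13 of keratin counts in control caps of stage 9, 8.37% ± 1.3 at stage 13 and 3.31% ± 0.615 at stage 17 (SD, n = 3). In induced caps the same copies made up 55.3% ± 7.6, 21.3% ± 3.34 and 8.76% ± 0.714. Groups did not overlap at stages 13 and 17 (exact permutation p = 0.1, adjusted p = 0.15 over 12 such comparisons). A larger share is not a higher level. In induced caps of stage 13 krt8.1.L and krt18.1.L were lower than in control caps, krt8.1.S did not pass and krt18.1.S was higher. Nearly all other keratin counts of stages 13 and 17 came from the copies of krt7, krt70, krt12.4 and krt12.5, so that their share is largely the remainder. This group was formed after its values were seen, and held 90.9% ± 1.22 in control and 78.1% ± 3.2 in induced caps at stage 13 and 95.2% ± 0.603 against 90.4% ± 0.784 at stage 17. These are shares of reads and not of molecules, since longer transcripts give more reads. The ratio of type I to type II counts was 0.856 ± 0.0109 in control and 0.766 ± 0.0359 in induced caps at stage 13, and 0.924 ± 0.0128 and 0.892 ± 0.0159 at stage 17 (SD, n = 3, exact permutation p = 0.1, adjusted p = 0.15). 

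At stage 9 no keratin differed between induced and control caps at the threshold of the test. Tests were made over 24499 genes with edgeR's quasi-likelihood test, at a Benjamini-Hochberg adjusted p under 0.05. Of the 28 tested keratins 0 were higher and 0 lower, beside 0.347% and 0.0653% of all genes. An unadjusted p under 0.05 was reached by krt12.4.S (2.62) and krt12.5.S (1.68), both higher, and without induced library b both values changed sign (-0.58 and -0.70). DESeq2 also called none, while a fit of these 6 libraries with the replicate block called 2 lower, krt12.4.L (-0.99, adjusted p = 0.010) and krt7.L (-0.38, adjusted p = 0.0094). The blastula already held some keratin RNA. The simple epithelial type II keratin krt8.1.L stood at 302, 242 and 276 CPM in control and 298, 287 and 311 CPM in induced libraries. The type I keratin krt70.S stood at 255, 367 and 360.1 against 228, 357 and 429 CPM. For both the ranges overlapped. Library b of the induced caps held 4.97 CPM of the epidermal keratin krt12.4.S against 0.116 and 0.292 CPM in libraries a and c, and its goblet markers summed to 4.18 CPM against 0.928 and 1.56.

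As control caps became epidermis, nearly the whole set rose. From stage 9 to 13, 26 of 28 tested keratins rose and 0 fell, beside 36.2% of all genes that rose and 35.1% that fell, and the same 26 had an unadjusted p under 0.05. With DESeq2 0 fell as well, and with library totals as the scale 1 fell. Against TMM, that scale shifts the median of all genes by -0.79 in this comparison. The median keratin rose by 8.29 on the log2 scale, or by 6.45 with 5 copies that had no count at stage 9 set to their lower bounds, while the median of all genes was -0.02. All 14 copies that did not meet the count filter through stage 9 libraries are among the 26. Their rise was in part a condition of their being tested, and they enter the median. The type II keratin krt7.S went from 15.2 ± 4.99 to 17257 ± 1077 CPM (SD, n = 3, log2 fold change 10.15 ± 0.49 SE, adjusted p = 1.1e-10). The type I keratin krt12.4.S went from 0.299 ± 0.0771 to 3590.3 ± 805 CPM (13.54 ± 1.14, adjusted p = 3.1e-08). The copies that did not pass were krt18.1.S, at 68.7 ± 18.5 and 63.6 ± 31.6 CPM (-0.11 ± 0.40, adjusted p = 0.82), and krt19.S, at 29.5 ± 6.16 and 40.2 ± 10.5 CPM (0.45 ± 0.31, adjusted p = 0.20). Both of these copies were higher in induced than in control caps at stage 17.

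From stage 13 to 17, 23 of 28 tested keratins of control caps did not pass the test. It called 2 higher and 3 lower, or 7.14% and 10.7%, below the 20.1% and 19% of all genes. These counts depended on the fit: with the replicate letter as a block 6 were lower, when only these 6 libraries were fitted, 10 passed as higher and 6 as lower, and 13 and 9 after adding the block. The shares of all genes were not computed for these alternative fits, so their counts cannot be set beside such a share. In the fits of 6 libraries the count filter was applied anew, so the keratins tested could differ. The type I keratin krt19.L was higher at stage 17 (log2 fold change 2.25 ± 0.50, adjusted p = 0.0023) as was krt222.S (1.67 ± 0.45, adjusted p = 0.0077). KRT222 is a short keratin-like protein in humans. The members that fell were the simple epithelial copies krt8.1.L (-1.15 ± 0.16, adjusted p = 4.7e-05), krt18.1.L (-2.20 ± 0.30, adjusted p = 3.7e-05) and krt18.1.S (-1.70 ± 0.41, adjusted p = 0.0040), the last with overlapping libraries. Their partner krt8.1.S stood at 2380.1 ± 413 and 2046 ± 412 CPM and did not pass (-0.22 ± 0.23, adjusted p = 0.48).

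In induced caps of stage 13 most keratins were lower than in control caps, and the exceptions were copies of krt8.1, krt18.1 and krt19. Of 28 tested members 25 were lower, 1 was higher and 2 did not pass, beside 21.4% of all genes lower and 18.9% higher. The median keratin stood at -2.51 on the log2 scale, or -2.18 with krt58.S at its lower bound, against 0.01 for all genes. By class, 18 of 20 type I and 7 of 8 type II copies were lower. The 5 copies that met the count filter through control but not induced libraries are all of type I. They are counted as lower at this stage and at stage 17, and they enter both medians. Their low induced values were in part a condition of their being tested. At stage 17, 16 were lower, 3 higher and 9 did not pass, beside 22.8% of all genes lower and 22.2% higher, with a median of -1.17 against 0 for all genes. All 16 that were lower at stage 17 had been lower at stage 13, and of the other 9 that had been lower 8 did not pass at stage 17 and 1, krt12.2.S, was higher. Scaling by library totals in place of TMM shifts the median of all genes by 0.08 at stage 13 and by 0.23 at stage 17, and it brings the higher calls to 2 and 5.

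**Figure D2:**
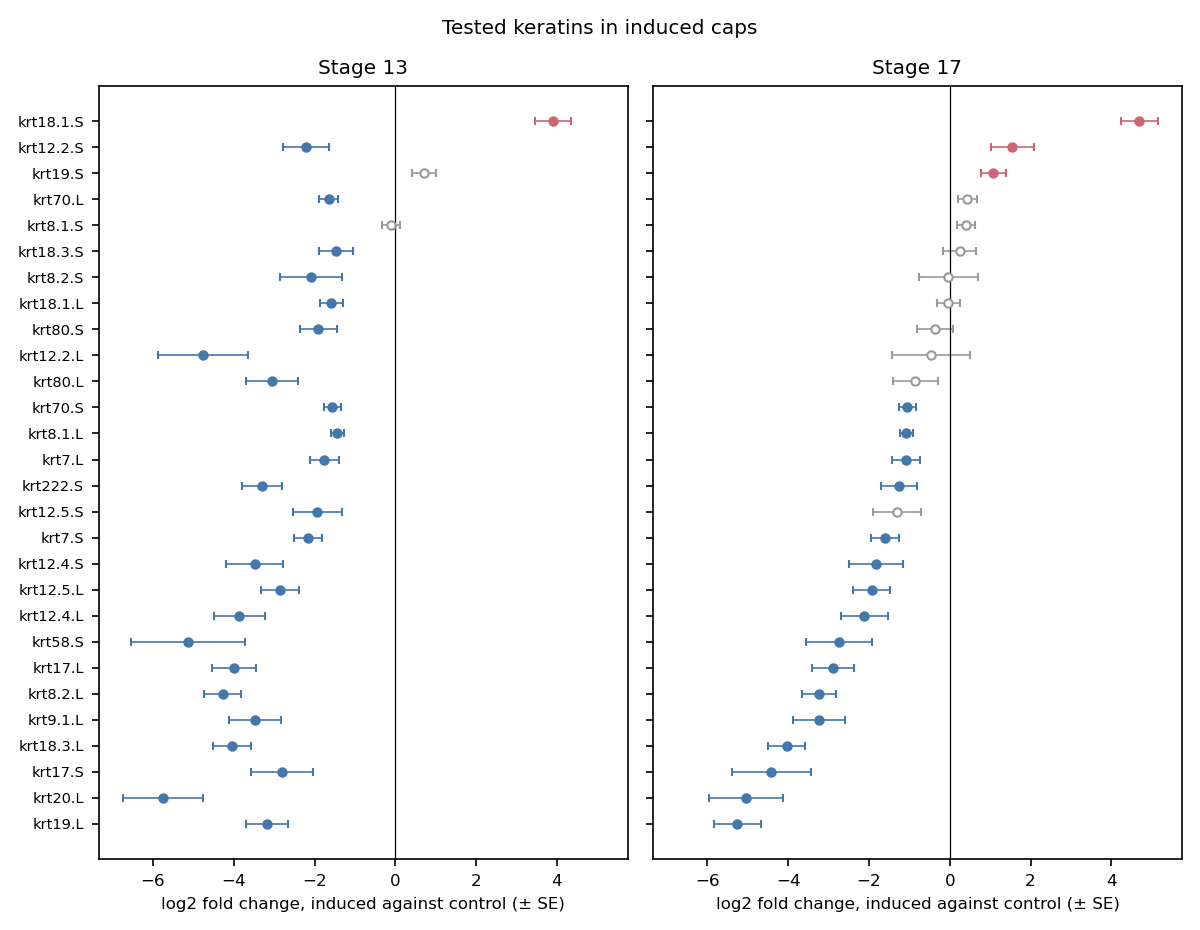
Log2 fold changes (± SE) of the 28 tested keratins in induced against control caps at stages 13 and 17, in the order of their values at stage 17. Filled red points were higher and filled blue points lower at an adjusted p under 0.05, and open grey points did not pass. At stage 13 krt18.1.S (3.91) is the red point and 25 points are blue. At stage 17 krt18.1.S (4.69), krt12.2.S and krt19.S are red.

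Among the abundant epidermal keratins, the type II copies krt7.L and krt7.S were lower in induced caps at both stages. KRT7 partners with type I keratins of simple epithelia in mammals. The level of krt7.S was 16879, 18472 and 16419 CPM in control libraries of stage 13 and 3941, 3501 and 4197 CPM in induced ones, and at stage 17 it was 27887, 31622 and 24849.6 against 11946, 7369 and 8588 CPM. The ranges were apart at both stages, with log2 fold changes of -2.15 ± 0.35 (adjusted p = 0.00014) and -1.60 ± 0.34 (adjusted p = 0.0012). The L copy stood at 15387, 17684 and 14211 against 4287, 4363 and 5322 CPM at stage 13 (-1.76 ± 0.36, adjusted p = 0.00096). At stage 17 its libraries were apart as well, at 23217, 28034 and 20386 against 13104, 11083 and 9731 CPM (-1.08 ± 0.35, adjusted p = 0.020). That last call is lost without control library b (adjusted p = 0.082), induced library b (0.064) or induced library c (0.076), and without the filter on low counts (0.057).

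The type I copies of krt70, an embryonic keratin of the frog, differed from each other. The S copy stood at 16274, 14020.3 and 13346 CPM in control and 5280.2, 4461 and 5035 CPM in induced libraries of stage 13 (-1.56 ± 0.21, adjusted p = 2.7e-05). At stage 17 it stood at 18452, 18904 and 14706 against 10142, 7806 and 7253 CPM (-1.05 ± 0.21, adjusted p = 0.00071). Its groups were apart at both stages. The L copy was lower at stage 13, with 2768, 2458 and 2730.2 against 889.7, 543 and 1106 CPM (-1.65 ± 0.23, adjusted p = 4.4e-05). At stage 17 every induced library lay above every control library, with 3383, 2771 and 3127 against 2135, 2513 and 2207 CPM, but the difference did not pass (0.44 ± 0.23, adjusted p = 0.14). It passed with library totals as the scale (0.67, adjusted p = 0.020) and in a fit of these 6 libraries alone (0.46, adjusted p = 0.013, and 0.021 with the replicate block).

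The copies of the epidermal markers krt12.4 and krt12.5, of type I, were lower in induced caps of stage 13. At stage 13 krt12.4.L stood at 4418, 6696 and 5955 CPM in control libraries and at 155, 199 and 817 CPM in induced ones. Induced library c, which also held more of the ciliated, ionocyte and goblet markers, was the highest of the induced libraries, and the part of such cells in the result was not tested. The log2 fold change was -3.87 ± 0.63 (adjusted p = 0.00014) and -4.98 without library c. At stage 17 the levels were 9241, 12669 and 9274 against 3222, 1915 and 2038 CPM (-2.12 ± 0.58, adjusted p = 0.0073), again without overlap. The S copy went the same way, from 3651, 4364 and 2757 to 272, 188 and 503 CPM at stage 13 (-3.48 ± 0.71, adjusted p = 0.0010). At stage 17 it stood at 9879, 11027 and 7083 against 4206, 1665 and 2012 CPM (-1.83 ± 0.67, adjusted p = 0.035). This call is lost without control library a (adjusted p = 0.078), control b (0.095), induced b (0.13) or induced c (0.12), with library totals (0.051) and without the filter on low counts (0.11).

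For krt12.5 the induced libraries also lay below the control libraries at both stages. The L copy had 218, 289 and 491 against 21.7, 37.8 and 79.0 CPM at stage 13 (-2.85 ± 0.47, adjusted p = 0.00016, and -3.45 without induced library c) and 488, 623 and 614 against 129, 160.0 and 163 CPM at stage 17 (-1.93 ± 0.45, adjusted p = 0.0024). The S copy had 4330.4, 6261 and 4964 against 1133, 1354 and 1600.1 CPM at stage 13 (-1.93 ± 0.61, adjusted p = 0.019). That call is lost when control library b (0.059) or induced library a (0.066) or b (0.055) is left out, and without the filter on low counts (0.069). At stage 17 krt12.5.S stood at 9658, 11730.2 and 8582 against 4763, 3580.2 and 3856 CPM and did not pass (-1.30 ± 0.60, adjusted p = 0.090), although it passed in a fit of these 6 libraries alone (adjusted p = 0.00039). The summed markers of goblet and small secretory cells moved with these keratins, and most of their counts at these stages came from otogl2.L. Their sum was 8217 to 9786 CPM in control and 270.3 to 1689.9 CPM in induced caps of stage 13, and 18796 to 26068 against 5197 to 14023 CPM at stage 17. Non-keratin epidermal markers (13 copies, with itln1 in both lists) summed to 7974 to 9434 against 5397 to 8686 CPM at stage 13, with overlap, and to 9233 to 11378 against 4897 to 6539 CPM at stage 17. The sum of stage 13 mixes members that went opposite ways. In control against induced libraries tp63.S had 3227, 3256 and 3740 against 90, 597 and 951 counts, and grhl3.S had 17990, 13011 and 11287 against 3678, 3808 and 2893. In the other direction, epcam.L had 12800, 7907 and 9114 against 17787, 31653 and 18344, and tfap2c.S had 7161, 5918 and 6387 against 8622, 12939 and 10853. Multiciliated cell markers summed to 1268 to 1846 against 57.2 to 209 CPM at stage 13 and 929 to 1181 against 56.9 to 74.1 CPM at stage 17. For ionocyte markers these sums were 664 to 1170 against 25.6 to 97.9 CPM and 1178 to 1491 against 39.8 to 110 CPM. Unlike the goblet sum, the ciliated and ionocyte sums of induced caps overlapped between stages 13 and 17. Not all members of the goblet list moved as its sum did. In induced libraries of stages 13 and 17, otogl2.L had 9311, 4191 and 26025, then 209752, 91540 and 163124 counts. For spdef.S these were 143, 67 and 144, then 65, 108 and 71, and for foxa1.L 3, 0 and 34, then 9, 0 and 1. For foxa1.S they were 28, 18 and 60, then 58, 51 and 79.

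**Figure D3:**
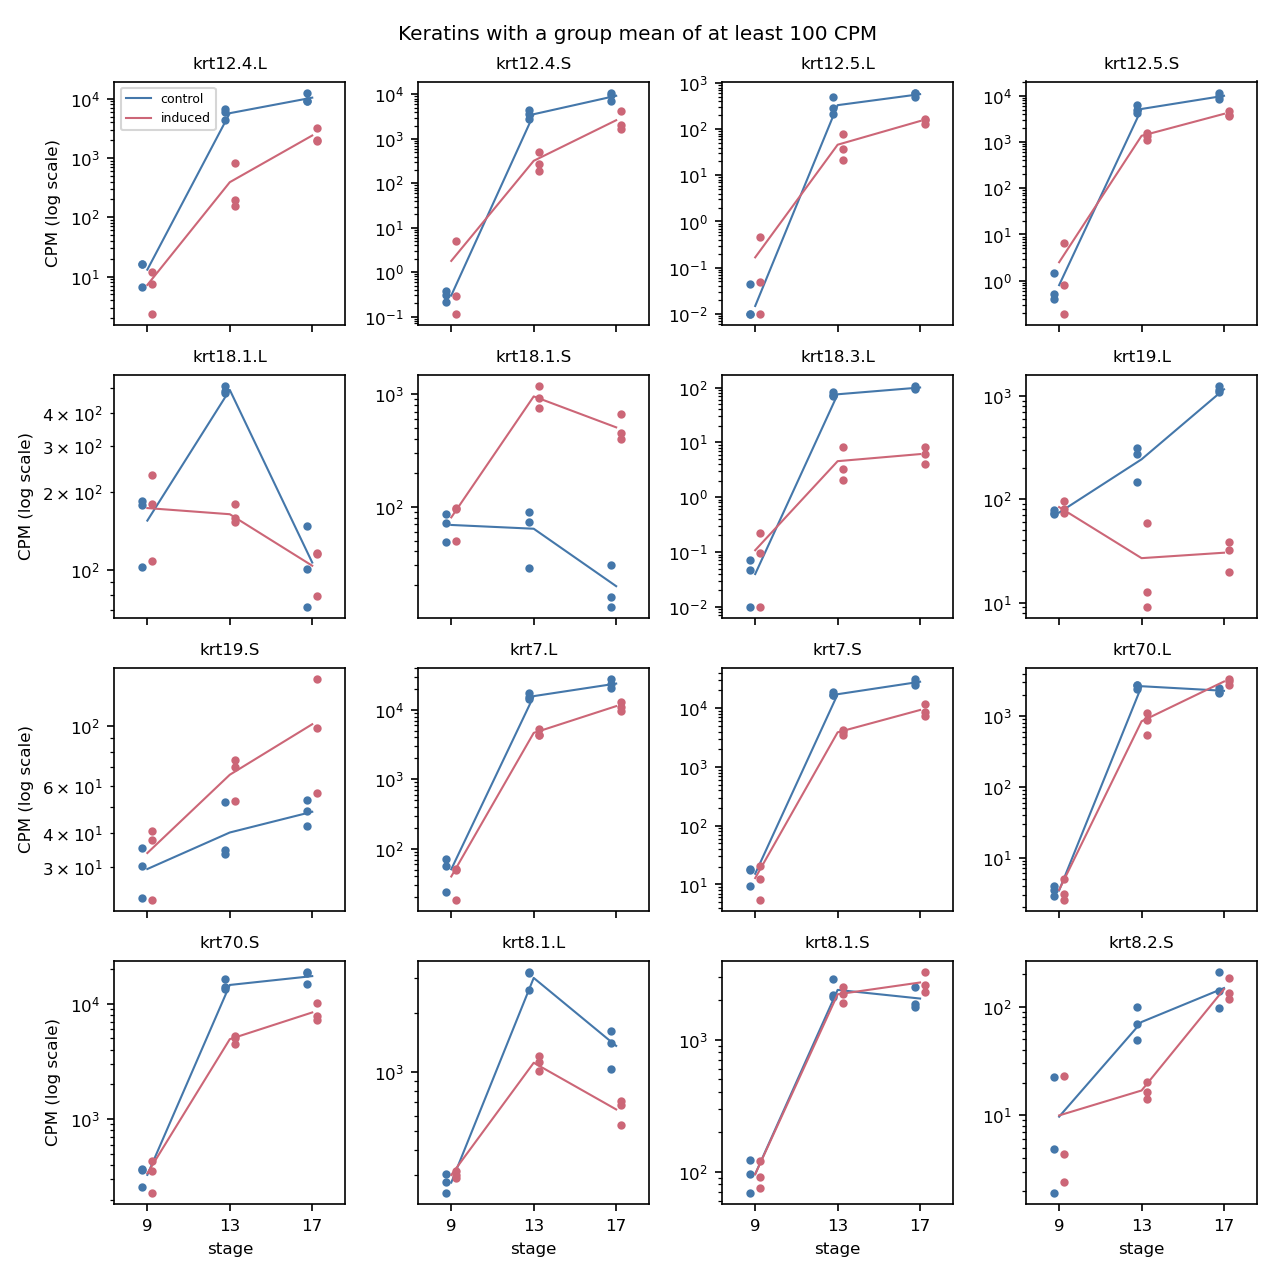
CPM on a log axis by stage for the 16 keratin copies with a mean of at least 100 CPM in some group. Points are libraries, lines join group means, blue is control and red is induced, and values under 0.01 CPM are drawn at 0.01. The red line of krt18.1.S lies above the blue one at stages 13 and 17 (956 against 63.6 and 507 against 19.6 CPM), that of krt19.L below it, and those of krt8.1.S lie close together.

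In the simple epithelial pair the L and S copies parted, and of its copies only krt18.1.S passed as higher in induced caps in the main fit. The S copy of krt18.1 stood at 89.9, 28.6 and 72.4 CPM in control libraries of stage 13 and at 925, 1192 and 751 CPM in induced ones, so the lowest induced library was far above the highest control library. The log2 fold change was 3.91 ± 0.44 (15-fold, adjusted p = 5.3e-06). At stage 17 the levels were 30.4, 12.9 and 15.6 against 402, 668 and 452 CPM, again without overlap, and the log2 fold change was 4.69 ± 0.46 (25.9-fold, adjusted p = 1.1e-06). Across 7 alternatives of the processing and 6 fits that left out a library, it ran from 3.56 to 4.24 at stage 13 and from 4.49 to 5.20 at stage 17 and passed in each. In contrast, krt18.1.L was lower in induced caps of stage 13, at 153, 179.9 and 158 against 478, 486 and 510.1 CPM (-1.59 ± 0.29, adjusted p = 0.00040). At stage 17 its libraries overlapped, with 117, 79.3 and 116 against 101, 147 and 72.2 CPM (-0.04 ± 0.28, adjusted p = 0.93).

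The copies of krt8.1, the type II partner, also parted. For krt8.1.L the control libraries of stage 13 held 3242, 2627 and 3187 CPM and the induced ones 1127, 1016 and 1201 CPM (-1.44 ± 0.16, adjusted p = 4.5e-06). At stage 17 it held 1624, 1413 and 1040.3 against 682, 536 and 715 CPM (-1.08 ± 0.16, adjusted p = 5.0e-05), and the groups were apart at both stages. The S copy showed no difference that passed, with 2856, 2114 and 2171 against 2515, 2211 and 1889 CPM at stage 13 (-0.11 ± 0.23, adjusted p = 0.76). At stage 17 krt8.1.S held 2518, 1869 and 1752 against 3261, 2289 and 2575 CPM, with overlap (0.40 ± 0.23, adjusted p = 0.16), and it passed as higher with library totals (0.63, adjusted p = 0.024) and with the replicate block in a fit of these 6 libraries (0.43, adjusted p = 0.014). In RefSeq's annotation of Xenopus_laevis_v10.1, krt8.1 and krt18.1 are direct neighbours, with 0 genes between them, on chromosome 2L and again on chromosome 2S. On 2L both neighbours were lower in induced caps of stage 13, and on 2S krt18.1.S was higher while krt8.1.S did not pass.

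The copies of krt19 also moved in opposite directions. KRT19 is a type I keratin of simple and ductal epithelia in mammals. Control libraries held 146, 271 and 313 CPM of krt19.L at stage 13 and 1136, 1256 and 1085 CPM at stage 17. Induced libraries held 12.8, 9.10 and 58.9 CPM, library c again being the highest, and then 39.0, 32.2 and 19.9 CPM. The ranges were far apart, with log2 fold changes of -3.17 ± 0.53 at stage 13 (9.03-fold lower, adjusted p = 0.00017, and -4.45 without induced library c) and -5.26 ± 0.58 at stage 17 (38.2-fold lower, adjusted p = 3.0e-06). The S copy was higher at stage 17, with 56.3, 149 and 98.1 CPM in induced and 48.2, 53.1 and 42.7 CPM in control libraries (1.08 ± 0.31, adjusted p = 0.0093). Without induced library b that difference was 0.74 and did not pass (adjusted p = 0.060). At stage 13 krt19.S stood at 52.6, 70 and 74.7 against 34.8, 33.6 and 52.4 CPM and did not pass (0.71 ± 0.31, adjusted p = 0.078), but it passed with the replicate block (0.69, adjusted p = 0.023), with library totals (0.79, adjusted p = 0.049) and without control library c (0.95, adjusted p = 0.044).

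A second neighbouring pair, krt8.2 of type II and krt18.3 of type I on chromosomes 9_10L and 9_10S, split by copy at stage 17. For krt18.3.L the levels were 72.9, 82.7 and 70.2 CPM in control against 3.20, 2.10 and 8.31 CPM in induced libraries of stage 13 and 108, 92.0 and 99.9 against 8.09, 4.05 and 6.18 CPM at stage 17. No induced library came near the control range, and the log2 fold changes were -4.04 ± 0.46 (adjusted p = 5.3e-06, and -4.80 without induced library c) and -4.04 ± 0.46 (adjusted p = 3.9e-06). Its neighbour krt8.2.L stood at 32.4, 46.9 and 21.1 against 1.11, 1.20 and 2.83 CPM at stage 13 (-4.27 ± 0.46, adjusted p = 3.2e-06) and 55.7, 66.6 and 38.9 against 8.69, 4.76 and 3.81 CPM at stage 17 (-3.23 ± 0.42, adjusted p = 1.7e-05). The S copies did not stay low. At stage 17 krt8.2.S stood at 139, 209.7 and 97.0 against 183, 135 and 117 CPM (-0.04 ± 0.73, adjusted p = 0.98). The other S copy, krt18.3.S, named because it completes the pair, stood at 23.9, 33.6 and 12.7 against 36.9, 25.8 and 20.7 CPM (0.25 ± 0.40, adjusted p = 0.66). At stage 13 both were lower, krt18.3.S (-1.48 ± 0.42, adjusted p = 0.010) and krt8.2.S (-2.09 ± 0.77, adjusted p = 0.039), the latter call being lost in 5 of 6 fits that left out a library (adjusted p = 0.067 to 0.12) and without the filter on low counts (0.12).

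Several scarce type I keratins had few counts or none in induced caps. Those named here, krt20.L, krt58.S, krt17.S and krt9.1.L, met the count filter only through control libraries, so low induced values were a condition of their being tested. The copy krt20.L, whose mammalian relative marks gut epithelium, had 63 counts in the 3 control libraries of stage 13 and 1 in the induced ones, a 69.6-fold lower ratio (95% counting interval 12 to 2793, adjusted p = 0.00024). At stage 17 it had 64 against 2 counts, a 37.9-fold lower ratio (10.1 to 319, adjusted p = 0.00031). In each stage the induced counts all came from library c, and without it none remained. The size of so low a ratio is poorly fixed, and intervals cover counting error alone. For krt58.S there were 10 control counts and 0 induced counts at stage 13, at least 3.68-fold lower with 3 counts over the group as the floor (adjusted p = 0.015). The copy krt17.S, related to a keratin of skin appendages and wounds in mammals, had 42 against 2 counts at stage 17, a 24.9-fold lower ratio (6.47 to 212, adjusted p = 0.0022), both induced counts being in library b, without which none remained. The copy krt9.1.L stood at 1.84, 1.75 and 0.846 CPM in control and 0.121, 0.152 and 0.175 CPM in induced libraries of stage 17 (-3.24 ± 0.64, adjusted p = 0.0014).

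Both copies of krt12.2 were lower in induced caps at stage 13. The L copy had 7.54, 21.7 and 16.7 CPM in control and 0, 0 and 1.64 CPM in induced libraries of stage 13, the last being library c (-4.76 ± 1.12, adjusted p = 0.0028, and -4.16 without induced library b). Without library c no induced count remained. The S copy had 2.51, 3.47 and 2.78 against 0.589, 0.958 and 0.339 CPM (-2.20 ± 0.57, adjusted p = 0.0069). At stage 17 krt12.2.L overlapped between groups, with 1.33, 0.911 and 4.08 CPM in induced and 1.29, 4.10 and 3.38 CPM in control libraries (-0.46 ± 0.96, adjusted p = 0.73). The S copy was then higher in induced caps, with 5.97, 4.05 and 12.9 against 3.31, 2.90 and 1.63 CPM (1.55 ± 0.53, adjusted p = 0.028). The groups were apart, but the call is lost without induced library c (0.94, adjusted p = 0.21), control library b (adjusted p = 0.061) or control library c (0.11), and with the replicate block in a fit of these 6 libraries (0.060). Induced library c of stage 17 was also the library with muscle markers at 28.5 CPM, and their part in the result was not tested.

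Most keratins still rose over time in induced caps. From stage 9 to 13, 23 of 28 tested keratins rose and 1 fell, beside 35% and 35.5% of all genes, with a median of 5.02 on the log2 scale, or 3.72 with 4 copies at their lower bounds. Scaling by library totals in place of TMM shifts the median of all genes by -0.65 in this comparison. Here too, 14 of the 28 did not meet the count filter through stage 9 libraries. Low values of these at stage 9 were in part a condition of their being tested. The copy that fell was krt19.L, from 73.4, 97.2 and 81.3 CPM to 12.8, 9.10 and 58.9 CPM (-1.64 ± 0.50, adjusted p = 0.0079). That call is lost in a fit of the compared groups alone, where 0 keratins passed as lower. In the same interval krt19.L rose in control caps by 1.71 ± 0.49 (adjusted p = 0.0056). The S copy of krt18.1 rose in induced caps by 3.57 ± 0.44 (adjusted p = 2.1e-06), from 49.8, 94.6 and 96.4 CPM to 925, 1192 and 751 CPM. From stage 13 to 17, 15 rose and 2 fell in induced caps, beside 21% and 18.7% of all genes. Among those that rose were krt70.L (1.87 ± 0.24, adjusted p = 2.2e-05), krt12.4.S (3.03 ± 0.70, adjusted p = 0.0027) and krt222.S (3.71 ± 0.50, adjusted p = 4.0e-05), and those that fell were krt8.1.L (-0.79 ± 0.16, adjusted p = 0.00096) and krt17.S (13.7-fold, counting interval 3.38 to 120, adjusted p = 0.012).

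An interaction term tested whether the difference between induced and control caps itself changed. From stage 9 to 13 it became more negative for 12 keratins and more positive for 1, beside 12.7% and 8.88% of all genes. The positive one was krt18.1.S (3.68 ± 0.58, adjusted p = 0.00030), and krt8.1.L (-1.57 ± 0.22, adjusted p = 0.00014), krt70.S (-1.61 ± 0.29, adjusted p = 0.0010) and krt19.L (-3.35 ± 0.70, adjusted p = 0.0027) were among the negative ones. Without induced library b of stage 9 the number of negative ones was 6. Among the 12 were copies that did not meet the count filter through stage 9 libraries, such as krt12.5.L and krt222.S. From stage 13 to 17 the difference became more positive for 3 keratins and more negative for 0, beside 4.03% and 4.07% of all genes. An unadjusted p under 0.05 was reached by 9 in the positive and 1 in the negative direction, and DESeq2 called 5 and 1, while the replicate block gave 5 positive ones. The shares of all genes were not computed for the unadjusted p or for these alternatives, so no direction of the family is read from these counts. The 3 were krt12.2.S (3.75 ± 0.78, adjusted p = 0.0097), krt70.L (2.08 ± 0.33, adjusted p = 0.0012) and krt18.1.L (1.54 ± 0.40, adjusted p = 0.027).

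The ratio of L to S counts, which compares 2 copies of a gene within each library, was computed for the 12 keratins with both copies tested. At stage 17 it was lower in every induced than in every control library for 7 keratins, higher for 2 and overlapping for 3, beside 26.9% of 6174 copy pairs of all genes that were lower and 23.9% that were higher. At stage 13 it was lower for 5 and higher for 1, beside 20.3% and 20.1%. On the log2 scale the ratio of krt18.1 was 2.41, 4.09 and 2.82 in control and -2.60, -2.73 and -2.25 in induced libraries of stage 13, so the prevailing copy changed from L to S. For krt19 at stage 17 it was 4.56, 4.56 and 4.67 against -0.53, -2.21 and -2.30, also from more L to more S counts. For krt7 the change went the other way, from more S to more L counts, with -0.13, -0.06 and -0.21 in control and 0.12, 0.32 and 0.34 in induced libraries of stage 13 and -0.26, -0.17 and -0.29 against 0.13, 0.59 and 0.18 at stage 17. At stage 9 the ratios of krt18.1 and krt19 did not differ by more than 0.06 between the group means. Over the 12 keratins the ratio was then lower for 1, higher for 1 and overlapping for 10. The 1 lower was krt12.4 (induced minus control -1.96) and the 1 higher krt12.5 (0.92), whose lowest counts in a library were 3 and 0. The share over all copy pairs was not computed for stage 9.

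Further ratios were lower in induced caps of stage 17. The difference in mean log2 ratio, induced minus control, was -1.47 for krt8.1, -3.28 for krt8.2, -4.40 for krt18.3, -2.04 for krt12.2 and -0.64 for krt12.5. It was 1.49 for krt70 and 0.54 for krt7. Each of these differences has an exact permutation p = 0.1, the smallest possible, and an adjusted p = 0.21 over 36 comparisons. Reads without a unique place, 10.3 to 12.2% by library, are missing from the counts, so the level of near-identical copies is uncertain and the ratio itself can depend on how many positions tell the copies apart.

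**Figure D4:**
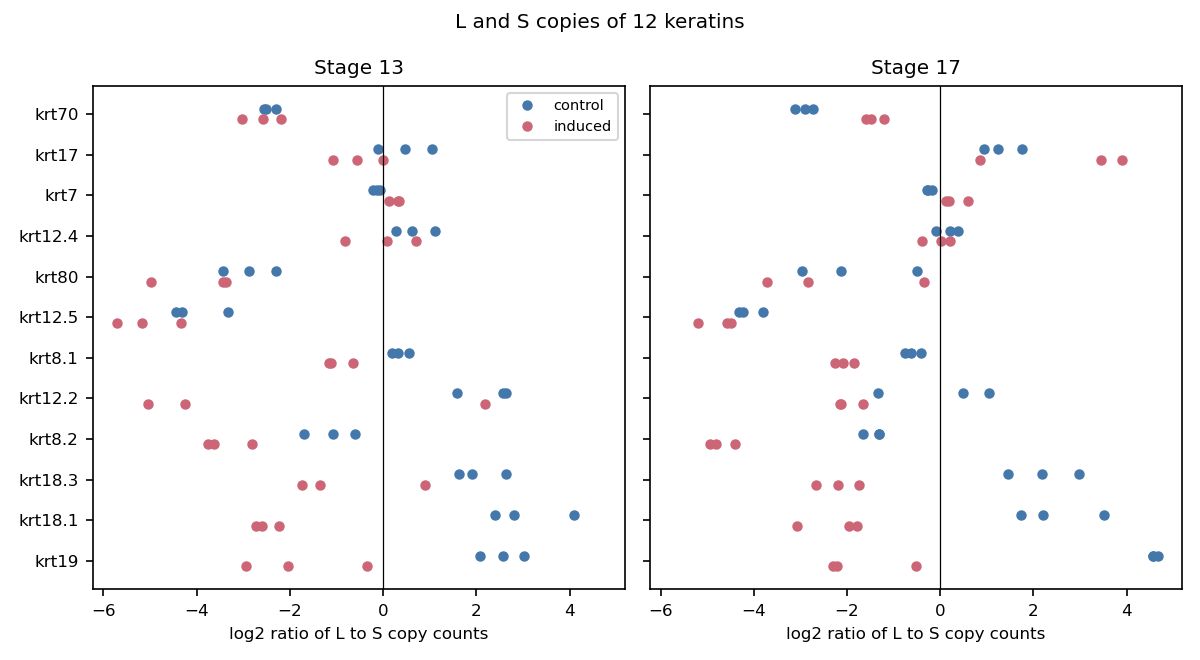
Log2 ratio of the counts of the L to the S copy in each library (points), with 0.5 counts added, for the 12 keratins with both copies tested, at stages 13 and 17. Values right of 0 mean more L than S counts. At stage 17 control (blue) and induced (red) libraries lie on opposite sides of 0 for krt18.1, krt19 and krt18.3, with more S counts in induced caps, and for krt7, with more L counts in induced caps, and those of krt12.4 overlap.

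By gene cluster, lower calls were spread over all the sites that hold keratins. In RefSeq's annotation 70 members matched by symbol and 2 by a synonym, and 5 had no match. The chromosome 2 cluster, with krt7, krt8.1, krt18.1 and krt80, had 8 tested copies, of which 6 were lower and 1 was higher at stage 13, beside 21.4% and 18.9% of all genes, with a median of -1.67 on the log2 scale. The chromosome 9_10 cluster of type I genes had 16 tested copies, of which 15 were lower and 1 did not pass, with a median of -3.23. All 5 copies that met the count filter through control but not induced libraries lie in this cluster and are among the 15. For them a low induced value was in part a condition of their being tested. The 4 copies of krt8.2 and krt18.3 were all lower at stage 13, with a median of -3.07. At stage 17 the medians of these sites were -0.61, -1.88 and -1.63. These are counts within lists whose members share neighbours, and no difference between sites was tested.

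Genes of other intermediate filaments were higher more often than lower in induced caps. Of 17 tested copies 8 were higher, 2 lower and 7 did not pass at stage 13, beside 18.9% of all genes higher and 21.4% lower, with a median of 0.60 on the log2 scale. The counts were the same at stage 17, beside 22.2% and 22.8% of all genes, with a median of 0.50. The mesenchymal filament gene vim.L stood at 533 ± 65.1 against 70.7 ± 14.3 CPM at stage 13 (2.91 ± 0.34, adjusted p = 7.5e-06) and at 299 ± 46.4 against 26.1 ± 0.497 CPM at stage 17 (3.51 ± 0.35, adjusted p = 1.3e-06; SD, n = 3). The neural progenitor filament gene nes.L was higher by 4.04 ± 0.44 and 6.81 ± 0.55 (adjusted p = 3.9e-06 and 1.6e-07). It was scarce in control caps, at 23.2 ± 10.4 in induced against 1.40 ± 0.286 CPM in control caps of stage 13. At stage 17 it stood at 18.7 ± 7.75 against 0.160 ± 0.129 CPM, so the size of that change is poorly fixed. The neurofilament genes nefl.L and nefm.L were lower at stage 13 (-1.55 ± 0.52 and -1.58 ± 0.56, adjusted p = 0.027 and 0.034). Lamin genes went both ways. The copy lmnb2.S was higher at stage 13, at 110 against 53.1 CPM (1.05 ± 0.15, adjusted p = 3.6e-05). At stage 17 it stood at 72.6 against 32.4 CPM (1.17 ± 0.15, adjusted p = 1.1e-05). The lamin genes lmna.L and lmnb3.L were lower at stage 17 (-2.91 ± 0.76 and -0.47 ± 0.17, adjusted p = 0.0052 and 0.035). Of these lmna.L was scarce, at 0.0685 against 0.549 CPM.

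Genes of desmosomes and hemidesmosomes, the junctions to which keratin filaments attach, were mostly lower. Of 31 tested copies 21 were lower, 2 higher and 8 did not pass at stage 13 (median -1.50), beside 21.4% of all genes lower and 18.9% higher. At stage 17 these counts were 20, 3 and 8 (median -1.23), beside 22.8% and 22.2%. The linker gene plec.S, for plectin, stood at 73.1 ± 28.8 against 700.2 ± 99.3 CPM at stage 13 (-3.26 ± 0.24, adjusted p = 9.8e-08) and 24.8 ± 5.02 against 684 ± 54.8 CPM at stage 17 (-4.79 ± 0.26, adjusted p = 3.4e-09). The desmosomal cadherin gene dsg2.L was lower at both stages (-1.79 ± 0.17 and -1.30 ± 0.17, adjusted p = 1.3e-06 and 1.7e-05), and jup.L, for plakoglobin, was lower at stage 13 (-2.20 ± 0.20, adjusted p = 7.9e-07). Against this direction, the cadherin gene dsc3.S (2.97 ± 0.37, adjusted p = 1.2e-05, at stage 13) and the integrin gene itgb4.L (4.65 ± 0.74, adjusted p = 0.00010, at stage 17) were higher. Both were scarce, dsc3.S at 5.81 ± 1.29 against 0.736 ± 0.0553 CPM and itgb4.L at 10.9 ± 1.68 against 0.432 ± 0.237 CPM.

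Transcription factor genes known to act in epidermis, listed as keratin regulators, were likewise mostly lower, and some differed as early as stage 9. Of 29 tested copies 2 were lower at stage 9, beside 0.0653% of all genes, the BMP-responsive genes msx1.L (-2.58 ± 0.40, adjusted p = 0.0054) and dlx3.S (-2.74 ± 0.45, adjusted p = 0.0084). At stage 13, 19 were lower, 6 higher and 4 did not pass (median -1.90), beside 21.4% of all genes lower and 18.9% higher. At stage 17 these counts were 21, 5 and 3 (median -1.64), beside 22.8% and 22.2%, so the share that was higher was near that of all genes at both stages. Among those lower at stage 13 were klf5.L (-2.22 ± 0.18, adjusted p = 2.3e-07), gata2.S (-3.03 ± 0.36, adjusted p = 8.1e-06) and grhl3.S (-2.16 ± 0.28, adjusted p = 1.6e-05). Of the members that were higher, msx1.L, a factor also active at the neural plate border, stood at 634 ± 98.2 against 181 ± 31.3 CPM at stage 13 (1.81 ± 0.35, adjusted p = 0.00062) and tfap2c.S at 651 ± 110.0 against 436 ± 28.7 CPM (0.58 ± 0.12, adjusted p = 0.0015; SD, n = 3).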

How the data were processed

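Poly(A) RNA of 18 frog animal cap samples was sequenced with a directional kit, per the labels' protocols. Per the submitters' processing notes, fastp 0.23.2, STAR 2.6.0 and HTSeq 1.99.2 were used; build, annotation and strand setting: not given in the sources used here. Raw counts per gene, 1 column per library, were deposited by the authors and used without the summary lines of HTSeq (reads in no gene were 10.2 to 12.8% by library). A lamprey table was not used here.

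Counts were tested with edgeR 4.0.16 in R 4.3.3 (quasi-likelihood test, robust, TMM, filterByExpr by group, two-sided) in 1 fit of 6 groups, with Benjamini-Hochberg adjustment over 24499 genes and a threshold of 0.05. DESeq2 1.42.0, other scalings, no filter, a replicate block, fits of the groups compared alone and leaving out each library were alternatives. SE were derived from the fold change and the F statistic. The steps were tested on simulated data.

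The letters a, b and c come from the column names and are in no label. Deviations from group means correlated by 0.118 to 0.861 in all pairs of the same letter and by -0.543 to 0.1 between letters. The letters were therefore taken to pair the samples, but only in the alternatives with a replicate block. The main test and the exact permutation tests did not use this pairing. No label names a clutch, and the p-values cover only the differences among these samples, which may be technical. Between libraries of a group, counts differed by more than counting error (chi-square per degree of freedom 19.5 to 67.3).

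Individually described are keratins with a mean of at least 100 CPM in a group, the 5 largest called changes per direction at each stage and the 4 largest per direction in each interaction. In the other lists up to 4 genes per direction with the smallest adjusted p were eligible. Members and lists were chosen with earlier results of these data known. Keratin type was taken from gene number and gene cluster in place of a protein alignment. The tests of fold changes compare levels within a gene. Shares and ratios across genes or copies are of read counts, with no correction for transcript length. RefSeq names come from Xenopus_laevis_v10.1, which may differ from the authors' build, so no coordinates are given.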

Additional observations from a re-analysis of the deposited data

Results flagged for a closer look

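In the interaction from stage 9 to 13, the induced-control difference of krt18.1.S grew by 3.68 on the log2 scale, that is, it differed between the stages at an adjusted p = 0.00030 in edgeR's test. The differences of krt12.4.S (-6.10), krt12.5.L (-6.01), krt18.3.L (-5.31) and krt222.S (-5.17, adjusted p = 0.0498) became more negative between the same stages. Without induced library b of stage 9 these were -2.88, -3.27, -4.07 and -3.73 and did not pass (adjusted p = 0.091, 0.57, 0.21 and 0.48). At stage 9 krt12.4.S had 141 counts in induced and 21 in control caps, and krt12.5.L had 13 and 1. For krt18.3.L these were 8 and 3, and for krt222.S 5 and 1. None of these copies met the count filter through stage 9 libraries, so the sizes of these changes are poorly fixed. Over fits that left out a library, krt12.5.L ran from -7.62 to -3.27, krt18.3.L from -6.07 to -4.07 and krt222.S from -6.79 to -3.73. The call of krt222.S is lost in 10 of 12 such fits (adjusted p = 0.056 to 0.48), with size factors of DESeq2 in edgeR (0.054), without the filter on low counts (0.086) and with the replicate block (0.080). That library, induced b of stage 9, held 4.97 CPM of krt12.4.S, against 0.116 and 0.292 CPM in the other induced libraries of stage 9.

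In the interaction from stage 13 to 17 the difference became more positive for krt12.2.S (3.75), krt70.L (2.08) and krt18.1.L (1.54). Without induced library c of stage 17, krt12.2.S was 3.14 (adjusted p = 0.034). For krt18.1.L the call is lost in 7 of 12 fits that left out a library (adjusted p = 0.051 to 0.067).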

How the results depend on the processing

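Of 854 gene values under alternatives, 753 kept their direction and their side of the threshold, 48 lost and 13 gained a call, 0 called values changed sign, and 40 values that were not called changed sign. Of 277 counts and shares, 246 stayed within 1.5 times or within their spread. With library totals, higher calls were 2 at stage 13 and 5 at stage 17, lower calls were 1 in control and 2 in induced caps from stage 9 to 13, and 5 keratins had a more positive interaction from stage 13 to 17. Without the filter on low counts, 5 were higher at stage 17. With DESeq2, 5 were lower in control and 4 in induced caps from stage 13 to 17, and the interaction over these stages gave 5 and 1. With the replicate block, 2 were higher at stage 13, 6 fell in control caps from stage 13 to 17 and 5 interactions over these stages were positive. Fits of the compared groups alone gave 10 higher and 6 lower in control caps from stage 13 to 17, and 0 lower in induced caps from stage 9 to 13. With the replicate block these fits gave 2 lower at stage 9 (krt12.4.L, -0.99, adjusted p = 0.010, and krt7.L, -0.38, adjusted p = 0.0094), 2 higher at stage 13, and 13 higher and 9 lower in control caps from stage 13 to 17. The cause of these changes was not tested. Shares of all genes were computed for the main fit only, so none stands beside the counts of the alternatives.

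Leaving out 1 library gave 1 to 2 higher and 22 to 26 lower at stage 13, 2 to 5 higher and 12 to 15 lower at stage 17, 1 to 2 lower in induced caps from stage 13 to 17, and for the interactions 6 to 14 negative from stage 9 to 13 and 2 to 6 positive and 0 to 1 negative from stage 13 to 17. No such fit reached the 16 lower at stage 17 of the main fit. The count filter was applied anew in each, so the keratins tested could differ from the 28 of the main fit. In control caps from stage 9 to 13, 27 to 29 rose. The difference in keratin share at stage 9 ran from -0.00627 to 0.0115 percentage points and changed sign without control library a (-0.00395), induced b (-0.00627) or induced c (-0.000856). Keratins with few counts, such as krt20.L and krt58.S, are limited by depth.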
